A study of Mus musculus with 28 samples.

Results

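Wild-type spermatogonia were compared at 48 h and at 18 h after an injection of retinoic acid. The comparison uses 4 of the 28 libraries of the series, 2 at 48 h and 2 at 18 h, which were taken by genotype and hour. The series holds mice that carry Stra8 (WT) and mice that lack it (KO), of a strain derived from C57BL/6 and 129s4/SvJae. All of them received WIN 18,446, which blocks the synthesis of retinoic acid, over 7 days; some were then taken at once (0 h) and the others after an injection of retinoic acid and 12, 18, 48, 72, 96 or 120 h of recovery. Both groups compared here therefore carry the blocker and the injection, and the samples hold no group without retinoic acid at either hour. Germ cells were sorted from fresh testis by the PIWIL2-eGFP reporter, and their polyA RNA was sequenced. The labels give neither the age of the mice, nor whether a library held 1 animal or a pool, nor the part of Stra8 that the KO lacks. Nothing says that the 2 libraries of a group came from separate animals, so p-values measure the spread between these libraries, which may be technical.

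Retinoic acid reaches undifferentiated spermatogonia in pulses along the seminiferous tubule and commits them to differentiation. It binds heterodimers of retinoic acid and retinoid X receptors, which sit on direct repeats of a short core sequence in target genes; some of these targets end the signal by degrading retinoic acid. A block of its synthesis holds spermatogonia in the undifferentiated state, from which an injection starts them together.

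The WT libraries held 9655560 and 7516646 reads in genes at 48 h, against 10058891 and 8150619 at 18 h. Partner libraries correlated at 0.990 at 48 h and 0.992 at 18 h across genes. Mitochondrial genes took 2.15 and 4.20% of reads at 48 h, against 2.48 and 5.78% at 18 h, with the higher share in replicate 2 at both times; each replicate number stands for a separate deposited table. The 10 germ cell markers, Piwil2 and Ddx4 among them, summed to 6037 and 5471 CPM of library totals at 48 h, against 6076 and 5182 at 18 h. Levels are given as CPM, counts per 1000000 reads, scaled between libraries by TMM unless library totals are named, with replicate 1 before replicate 2.

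Between these times, 5 of the listed retinoic acid target genes fell, among them Cyp26a1 and Rarb. More genes passed the test upwards than downwards, while a fold change above 0 was seen in 8623 of all 17519 genes tested. Of 17519 genes tested, 193 were higher at 48 h (1.10%) and 103 lower (0.588%), or 296 in either direction (1.69%), at an adjusted p under 0.05 (edgeR's quasi-likelihood test with Benjamini-Hochberg adjustment, with the spread estimated over all 28 libraries). These genes are called higher or lower below. At an unadjusted p under 0.05 there were 2253. In all 193 and all 103, both 48 h libraries lay beyond both 18 h libraries, which among all genes tested held for 22.6% upwards and 22.6% downwards. At least a 2-fold change was seen in 167 of the 193 and in 82 of the 103. The count depended on single libraries: it was 35 when replicate 2 of 18 h was left out, 122 when replicate 1 of 18 h was left out, and 84 or 111 when replicate 1 or 2 of 48 h was left out. Of the 296 genes, 23 were called in all 4 of those fits and 127 in none of them. Of the 67 called genes chosen for naming, 12 were called in all 4 (Ccnd1, Ccnd2, Cyp26a1, Eppin, Fbxo40, Gpr56, Nefm, Pla2g7, Pou5f1, Rragd, Smoc2 and Thra), 16 in none, and the others in 1 to 3.

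**Figure D1:**
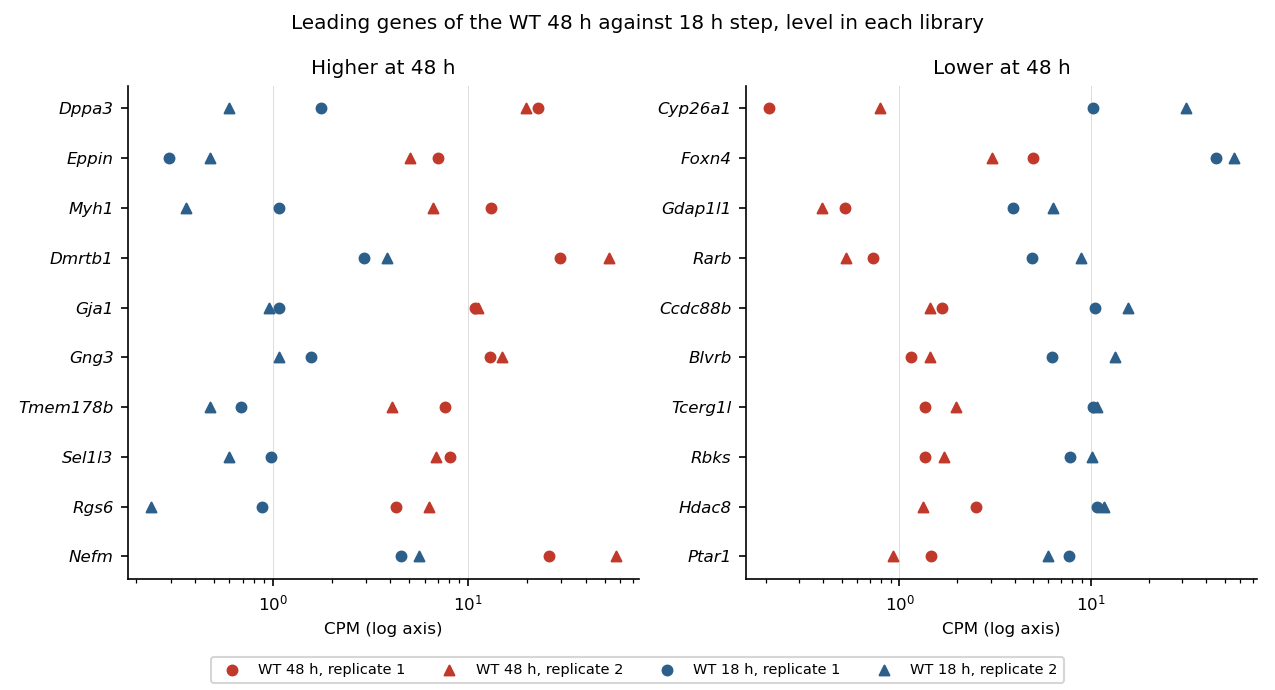
CPM in each library, on a log axis, of the 10 genes with the largest rise (left) and the 10 with the largest fall (right) among called genes with a gene name and at least 5 CPM in either group; red is WT 48 h, blue WT 18 h, circles replicate 1 and triangles replicate 2. In every row both red points lie on the same side of both blue points, which the rule that chose these genes required. Dppa3 had 22.6 and 19.8 at 48 h, against 1.77 and 0.598 at 18 h, and Cyp26a1 0.209 and 0.792 at 48 h, against 10.3 and 31.5 at 18 h.

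Cyp26a1 had the largest fall among called genes with at least 5 CPM in either group, and Rarb the fourth after Foxn4 and Gdap1l1. Cyp26a1 (ENSMUSG00000024987.6; GRCm38 chromosome 19, 37697798 to 37701536, + strand), the cytochrome P450 that degrades retinoic acid, had 0.209 and 0.792 CPM at 48 h, against 10.3 and 31.5 at 18 h. These are 2 and 6 reads at 48 h, against 105 and 263 at 18 h, with a log2 fold change of -5.40 ± 0.70 (SE; adjusted p = 0.00022 by edgeR), called in all 4 fits that left out a library. Rarb (ENSMUSG00000017491.9; chromosome 14, 16430839 to 16819156, - strand), a retinoic acid receptor gene and a classical target of its own ligand, had 0.730 and 0.528 CPM at 48 h, against 4.91 and 8.86 at 18 h (log2 fold change -3.39 ± 0.66, adjusted p = 0.00652). Its exons share 38.4% of their length with Top2b on the opposite strand, and the sources used here do not say whether reads were counted by strand. Rarb was called in only 1 of the 4 fits that left out a library. At 12 h Cyp26a1 had 26.9 and 45.7 CPM, which overlap its 18 h libraries, and Rarb 10.1 and 11.7, above both of its 18 h libraries. For neither gene was 12 h tested against 18 h. At 72 h both genes were low, with 0.619 and 0.445 for Cyp26a1 and 0.124 and 0.111 for Rarb.

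Promoters of these targets are shown because the receptors act on such sequences; Stra8 is added as the gene that the series is built on. Each runs from 250 bases before to 50 bases after the gene's start in RefSeq (GRCm38.p6), 5′ to 3′ on the gene's strand. Capitals mark the receptor core, searched as AGGTCA with the variants AGTTCA and GGGTCA, plus GGTTCA, on both strands; a core on the opposite strand appears as its reverse complement.
Cyp26a1, chr19:37697558-37697857, + strand: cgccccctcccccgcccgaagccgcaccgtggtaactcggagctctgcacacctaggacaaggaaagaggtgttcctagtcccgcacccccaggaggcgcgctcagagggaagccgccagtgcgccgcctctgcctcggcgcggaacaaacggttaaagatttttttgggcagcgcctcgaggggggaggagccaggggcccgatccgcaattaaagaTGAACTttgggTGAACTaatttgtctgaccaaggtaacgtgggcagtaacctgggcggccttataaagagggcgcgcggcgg
Rarb, chr14:16575427-16575726, - strand: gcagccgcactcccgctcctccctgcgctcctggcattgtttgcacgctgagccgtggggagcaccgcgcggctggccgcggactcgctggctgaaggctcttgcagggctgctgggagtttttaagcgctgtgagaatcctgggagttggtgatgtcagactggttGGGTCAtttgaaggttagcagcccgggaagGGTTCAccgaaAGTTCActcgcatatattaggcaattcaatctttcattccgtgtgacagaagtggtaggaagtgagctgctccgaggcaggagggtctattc
Stra8, chr6:34920698-34920997, + strand: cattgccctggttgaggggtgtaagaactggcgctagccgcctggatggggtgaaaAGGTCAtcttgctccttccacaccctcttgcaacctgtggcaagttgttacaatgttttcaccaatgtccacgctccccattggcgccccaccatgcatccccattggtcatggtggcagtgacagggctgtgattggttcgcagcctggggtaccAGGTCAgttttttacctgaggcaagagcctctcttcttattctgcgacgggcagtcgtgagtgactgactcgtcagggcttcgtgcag

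The Cyp26a1 and Rarb promoters each held 1 direct repeat of the core with a spacer of 5 bases, the classical arrangement for these receptors. In Cyp26a1 it read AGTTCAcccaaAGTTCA on the strand opposite to the gene, ending 16 bases before the start. In Rarb it read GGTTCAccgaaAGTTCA on the gene's strand, ending 37 bases before the start. Such a repeat was present in 0.0974% of the 32851 promoters of this length, and repeats with a spacer of 1 or 2 bases in 0.222% and 0.268%. The Stra8 promoter held 2 single cores and no direct repeat with these spacers, and a core was present in 43.7% of all promoters. Of the 80 genes called lower that have a promoter in the table, 3 held the repeat with a spacer of 5 bases (3.75%). Of the 151 called higher 0 did, beside 0.115% of the 27025 genes in the table, tested here or not. Cyp26a1 and Rarb are among the 3 and were chosen for the search as known targets. The share among genes called lower was therefore partly set in advance and is given as a description. The other of the 3 was Blvrb, the biliverdin reductase B gene, singled out after its match was seen, whose level was 1.15 and 1.45 at 48 h, against 6.28 and 13.3 at 18 h (log2 fold change -2.90 ± 0.51); repeat elements were not masked. The promoter element CCAAT (or ATTGG) was present in Stra8 and in 37.4% of all promoters, and TTTGAA (or TTCGAA) in Rarb and in 19.2% of all. A match describes the letters and does not show that a factor binds there.

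Stra8, a target of retinoic acid required for meiotic entry, had 97.9 and 198 CPM at 48 h, against 737 and 815 at 18 h. The groups did not overlap, but the change did not pass the test (log2 fold change -2.39 ± 0.76, adjusted p = 0.154 by edgeR). In a fit of the 4 WT libraries alone the adjusted p was 0.0484. With a replicate block in a fit of all WT libraries it was 2.28e-05, so that the call depends on the fit. The labels do not say that a replicate number pairs samples. As a check of the labels, KO libraries had 61.9 and 2.15 CPM of Stra8 at 48 h, against 16.9 and 21.95 at 18 h, the first of them well above the other 48 h KO library. Kit, the receptor that marks differentiating spermatogonia, had 702 and 919.5 CPM at 48 h, against 691 and 963 at 18 h; the groups overlapped (log2 fold change -0.03 ± 0.35, adjusted p = 0.993). Dhrs3, which lowers retinoic acid by reducing retinaldehyde, had 5.01 and 5.67 CPM at 48 h, against 3.14 and 1.92 at 18 h and did not pass (adjusted p = 0.364).

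Of 22 listed retinoic acid target genes 18 were tested, of which 5 were lower and 0 higher. Over all genes tested the shares were 0.588% lower and 1.10% higher, and the list counts below are to be read beside these. A few calls in a list describe those genes and not the list. The median log2 fold change of the tested members was -0.77, beside -0.0068 over all genes tested. Besides Cyp26a1 and Rarb, Rec8, a meiotic cohesin subunit, was among the members called, with 19.9 and 24.3 CPM at 48 h, against 68.8 and 91.6 at 18 h (-1.86 ± 0.33). Cyp26b1, which degrades retinoic acid as Cyp26a1 does, had the opposite order without passing the test, with 29.4 and 32.6 at 48 h, against 15.9 and 17.7 at 18 h (adjusted p = 0.201). Of 13 tested genes for the other retinoid receptors and for retinoid metabolism, 0 were called; Rarg, the receptor gene most used by spermatogonia, had 67.3 and 54.2 at 48 h, against 39.5 and 42.1 at 18 h (adjusted p = 0.12).

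**Figure D2:**
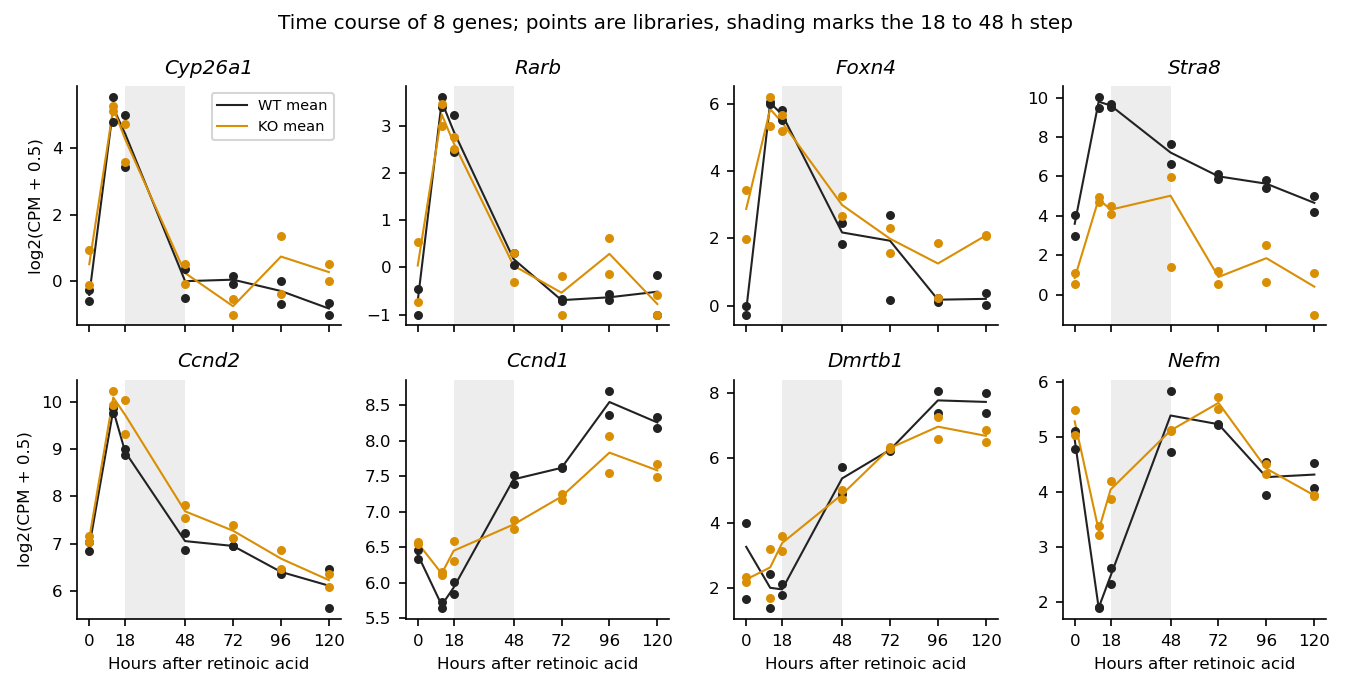
Level of 8 genes against hours after retinoic acid, as log2(CPM + 0.5); points are libraries, lines join group means, black is WT and orange KO, and shading marks 18 to 48 h. In WT, Cyp26a1 and Ccnd2 stand at 26.9 and 45.7 and 940.1 and 873 CPM at 12 h and decline, while Dmrtb1 climbs to 169 and 272 CPM at 96 h.

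Other regulators fell with them. Foxn4, a forkhead factor gene, had 5.01 and 3.03 CPM at 48 h, against 45.1 and 55.8 at 18 h (log2 fold change -3.63 ± 0.60), after 65.7 and 63.2 at 12 h. Ccnd2, the cyclin D2 gene, which accompanies commitment to differentiation, had 116 and 149 CPM at 48 h, against 469 and 513 at 18 h (-1.89 ± 0.24, called in all 4 fits that left out a library). Pou5f1, the pluripotency factor OCT4, had 6.26 and 3.69 CPM at 48 h, against 25.7 and 28.2 at 18 h (-2.42 ± 0.31, called in all 4). In none of the 3 did the 48 h and 18 h libraries overlap, as in all genes called.

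The rest of the leading fall was a mixed set of enzymes and signalling genes. Hdac8, a histone deacetylase gene on the X chromosome, had 2.50 and 1.32 CPM at 48 h, against 10.8 and 11.7 at 18 h. Rbks, the ribokinase gene, had 1.36 and 1.72 CPM at 48 h, against 7.75 and 10.2 at 18 h, and Ptar1, of a protein prenyltransferase, 1.46 and 0.923 at 48 h, against 7.66 and 5.98 at 18 h. Rgs10, a regulator of G-protein signalling, had 4.07 and 7.26 CPM at 48 h, against 16.8 and 27.0 at 18 h, and Cacna2d2, an auxiliary calcium channel subunit, 10.6 and 8.18 at 48 h, against 37.0 and 34.4 at 18 h. Tph1, which starts serotonin synthesis, had 0.835 and 1.58 CPM at 48 h, against 7.16 and 4.31 at 18 h, and Gcnt1, an O-glycan branching enzyme, 2.30 and 1.85 at 48 h, against 10.4 and 7.54 at 18 h. The remaining leading names, Gdap1l1, Ccdc88b and Tcerg1l, had log2 fold changes of -3.41 ± 0.77, -3.04 ± 0.53 and -2.65 ± 0.66. A pair of called genes had no read in either 48 h library and were singled out for that: 1700031F05Rik, with 35 and 39 reads at 18 h, was at least 11.6-fold lower, and Psmb8, an immunoproteasome subunit with 7 and 5 reads at 18 h, at least 1.84-fold lower, against a floor of 3 counts per library that covers counting error only.

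Dmrtb1, the DM-domain factor DMRT6 of the passage from mitosis to meiosis, had 29.5 and 52.8 CPM at 48 h, against 2.94 and 3.83 at 18 h (log2 fold change 3.60 ± 0.63) and went on to 78.0 and 74.6 at 72 h. Dppa3, a germline and maternal factor that guards DNA methylation, had 22.6 and 19.8 CPM at 48 h, against 1.77 and 0.598 at 18 h (4.11 ± 0.79). At 72 h its libraries held 2.48 and 20.03 CPM and lay far apart. Nobox, an oocyte homeobox factor gene, had 29.1 and 23.7 CPM at 48 h, against 4.22 and 2.75 at 18 h (2.91 ± 0.45).

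Myh1, a skeletal myosin heavy chain, had 13.04 and 6.60 CPM at 48 h, against 1.08 and 0.359 at 18 h; it belongs to a family of similar genes between which reads may be split, so its value is uncertain. Nefm, a neurofilament gene, had 26.0 and 57.0 CPM at 48 h, against 4.51 and 5.63 at 18 h (3.03 ± 0.32, called in all 4 fits that left out a library; 19.2% of its exon length is shared with Nefl). Dll1, a Notch ligand gene, had 35.6 and 47.4 CPM at 48 h, against 3.14 and 8.498 at 18 h (2.84 ± 0.60; 20.5% shared with A930024N18Rik). Zic1, a zinc-finger factor gene, had 17.0 and 14.6 CPM at 48 h, against 2.55 and 1.56 at 18 h. Gng3, a G-protein gamma subunit, had 12.9 and 14.9 CPM at 48 h, against 1.57 and 1.08 at 18 h, with 24.2% of its exon length shared with Bscl2, which was also called higher. The log2 fold changes of Tmem178b, Sel1l3, Rgs6 (a regulator of G-protein signalling) and Mobp (a myelin protein) were 3.28 ± 0.67, 3.19 ± 0.51, 3.15 ± 0.68 and 2.86 ± 0.46.

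Eppin and Gja1 were also among the leading 15. Eppin, a protease inhibitor of the male tract, had 6.99 and 5.01 CPM at 48 h, against 0.294 and 0.479 at 18 h (3.92 ± 0.58, called in all 4 fits that left out a library), and Gja1, the gap junction protein connexin 43, 10.9 and 11.2 at 48 h, against 1.08 and 0.957 at 18 h (3.41 ± 0.59). Gja1 and Sox9, the factor of male somatic cells (10.9 and 5.41 at 48 h, against 2.36 and 1.44 at 18 h; 2.08 ± 0.43), are on the list of Sertoli cell markers. The 20 Sertoli markers summed to 279 and 227 CPM of library totals at 48 h, against 62.2 and 63.8 at 18 h. Of the 20, 2 were called higher and 0 lower, beside 1.10% and 0.588% of all genes tested. A fold change above 0 was seen in 19, beside 8623 of all 17519 genes. In 17, both 48 h libraries lay above both 18 h libraries, beside 22.6% of all genes. None was at 0 in all 4 libraries, and the median log2 fold change was 1.89. Clu (clusterin) had 137 and 95.6 CPM at 48 h, against 15.6 and 18.8 at 18 h and did not pass (adjusted p = 0.0908). In the other WT groups the sum was 98.3 and 139 (0 h), 54.2 and 95.6 (12 h), 116 and 262 (72 h), 106 and 305 (96 h) and 121 and 154 (120 h). Sertoli markers thus moved with the genes called higher; their part in that result was not tested. In bulk samples, more cells of a type and more RNA per cell cannot be told apart.

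Markers of other cells had 0 calls, but not all could be tested. Tested were 6 of 13 Leydig, 3 of 13 macrophage and leukocyte, 2 of 8 erythroid and 9 of 17 spermatocyte and spermatid markers. Peritubular and stromal markers summed to 163 and 177 CPM at 48 h, against 74.5 and 115 at 18 h. Of the 11 tested among them, 9 had a fold change above 0, with a median log2 fold change of 0.66. Leydig markers summed to 106 and 119 at 48 h, against 87.1 and 102 at 18 h, and endothelial markers to 68.8 and 69.7 at 48 h, against 74.1 and 66.4 at 18 h. Macrophage and erythroid markers stayed under 7 CPM in each of the 4 libraries. Spermatocyte and spermatid markers summed to 380.4 and 428 at 48 h, against 364 and 349 at 18 h.

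Genes of undifferentiated spermatogonia, the stem and progenitor cells, included more called higher than lower. Of 30 tested, 4 were called higher and 1 (Pou5f1) lower, beside 1.10% and 0.588% of all genes tested. A fold change above 0 was seen in 23, beside 8623 of all 17519 genes tested, and 25 of the 30 did not pass. Their median was 0.76 on the log2 scale. Lhx1, a factor gene downstream of GDNF, had 11.5 and 17.8 CPM at 48 h, against 3.53 and 2.87 at 18 h (2.18 ± 0.36), and T, the brachyury factor gene, 6.78 and 8.97 at 48 h, against 1.67 and 0.838 at 18 h (2.61 ± 0.56). Lin28a, an RNA-binding protein of progenitors, had 179 and 190.1 CPM at 48 h, against 105 and 117 at 18 h (0.73 ± 0.18), all under the 400.3 and 371 of 0 h. Nr2e1, an orphan nuclear receptor gene, had 5.63 and 1.58 CPM at 48 h, against 0.981 and 0.359 at 18 h. Among members that did not pass, Zbtb16, the factor PLZF, had 383 and 328 CPM at 48 h, against 217 and 165 at 18 h (adjusted p = 0.085), and Ret, the GDNF receptor kinase, 217 and 201 at 48 h, against 113 and 102 at 18 h (adjusted p = 0.232).

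Of 18 tested genes of differentiating spermatogonia, Dmrtb1 was higher, Ccnd2 lower, and 16 not called, where 1.69% of all genes tested were called in either direction. Sohlh1, a factor required for that differentiation, had 301 and 319 CPM at 48 h, against 253 and 311 at 18 h, and Dnmt3b, a de novo DNA methyltransferase, 355 and 369.5 at 48 h, against 346 and 269 at 18 h. Neither passed the test.

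Of 25 tested genes for GDNF and FGF receptors and MAPK feedback, 2 were higher and 0 lower, beside 1.10% and 0.588% of all genes tested. The median was 0.02. Dusp6, a phosphatase that switches off ERK, had 36.4 and 42.3 CPM at 48 h, against 18.8 and 14.5 at 18 h (1.24 ± 0.28); its call was lost when any of the 4 libraries was left out (adjusted p up to 0.326). Spry4, an inhibitor of receptor kinase signalling, had 18.5 and 17.7 CPM at 48 h, against 7.36 and 4.43 at 18 h (1.61 ± 0.42, adjusted p = 0.0484); scaling by library totals ended the call, as did leaving out any of the 4 libraries (adjusted p up to 0.466). Gadd45b, a stress-inducible gene, was the 1 called of 23 immediate early and stress genes, with 16.5 and 22.3 CPM at 48 h, against 5.50 and 5.39 at 18 h. Among 7 genes of Id and E proteins, Id2, which holds E proteins away from DNA, was the 1 called, with 4.90 and 6.73 CPM at 48 h, against 0.981 and 0.598 at 18 h (2.83 ± 0.57).

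Transcription factor families changed member by member. Of 38 tested homeobox genes 2 were higher and 3 lower, beside 1.10% and 0.588% of all genes tested. Tgif1, a repressor of retinoid and TGF-beta signalling, had 11.4 and 7.26 CPM at 48 h, against 2.06 and 3.11 at 18 h (1.86 ± 0.42), and Pbx2, a cofactor of Hox proteins, 139 and 155 at 48 h, against 261 and 280.2 at 18 h (-0.88 ± 0.18). Hoxb4 fell as well (-1.82 ± 0.46). Of 35 Sox, T-box, forkhead and DM-domain genes 4 were higher and 1 lower (median 0.67), beside the same shares of all genes. Besides Dmrtb1, Sox9 and Foxn4, these were Tbx1, with 29.9 and 48.7 CPM at 48 h, against 8.93 and 10.2 at 18 h, and Sox4, with 119 and 177 at 48 h, against 57.5 and 63.2 at 18 h, of whose exon length 54.6% is shared with Gm26735 on the opposite strand.

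Among 29 tested genes for other nuclear receptors 3 were higher and 2 lower, beside 1.10% and 0.588% of all genes tested. Thra, the thyroid hormone receptor alpha gene, had 31.2 and 25.9 CPM at 48 h, against 7.95 and 6.94 at 18 h (1.93 ± 0.27, called in all 4 fits that left out a library), and Nr5a2, an orphan receptor gene, 31.8 and 31.5 at 48 h, against 6.08 and 6.82 at 18 h (2.29 ± 0.42). The testicular receptor genes Nr2c1 and Nr2c2 fell together. Nr2c1 had 3.44 and 2.90 CPM at 48 h, against 10.4 and 7.18 at 18 h (-1.46 ± 0.36), and Nr2c2 34.0 and 23.5 at 48 h, against 63.9 and 59.6 at 18 h (-1.10 ± 0.25), with 31.2% of its exon length shared with Mrps25.

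Of 20 tested cell cycle inhibitors and D cyclins, 1 (Ccnd1) was higher and 1 (Ccnd2) lower. Ccnd1, the cyclin D1 gene, had 167 and 183 CPM at 48 h, against 64.2 and 57.1 at 18 h (1.53 ± 0.17, called in all 4 fits that left out a library; 23.4% of its exon length is shared with Lto1 on the opposite strand). Ccnd3, the remaining D cyclin gene, had 84.3 and 77.3 CPM at 48 h, against 53.8 and 51.9 at 18 h and did not pass (adjusted p = 0.312). Of 52 DNA replication genes 0 were called (median -0.04), of 63 mitosis genes 0 (median 0.15) and of 18 histone genes 0. Mycn, the Myc family gene of progenitors, had 57.5 and 45.5 CPM at 48 h, against 25.1 and 23.6 at 18 h (1.08 ± 0.19), and Mxd4, which competes with Myc for its partner Max, 174 and 189.8 at 48 h, against 112 and 97.8 at 18 h (0.79 ± 0.17); they were the 2 called of 22 Myc, E2F and retinoblastoma genes.

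Of 55 tested genes of meiotic prophase 1 was called, Rec8, given above, and the median was -0.14. Hormad1, of the chromosome axis, had 14.9 and 14.5 CPM at 48 h, against 34.0 and 44.6 at 18 h without passing the test (adjusted p = 0.215), and Smc1b, a meiotic cohesin subunit, 337 and 345 at 48 h, against 247 and 175 at 18 h (adjusted p = 0.161). Of 30 piRNA pathway genes 1 was called, Spocd1, which directs DNA methylation to transposons, with 15.5 and 11.6 CPM at 48 h, against 6.18 and 6.58 at 18 h (1.09 ± 0.25). Lin28a was the 1 called of 31 germline RNA-binding genes.

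**Figure D3:**
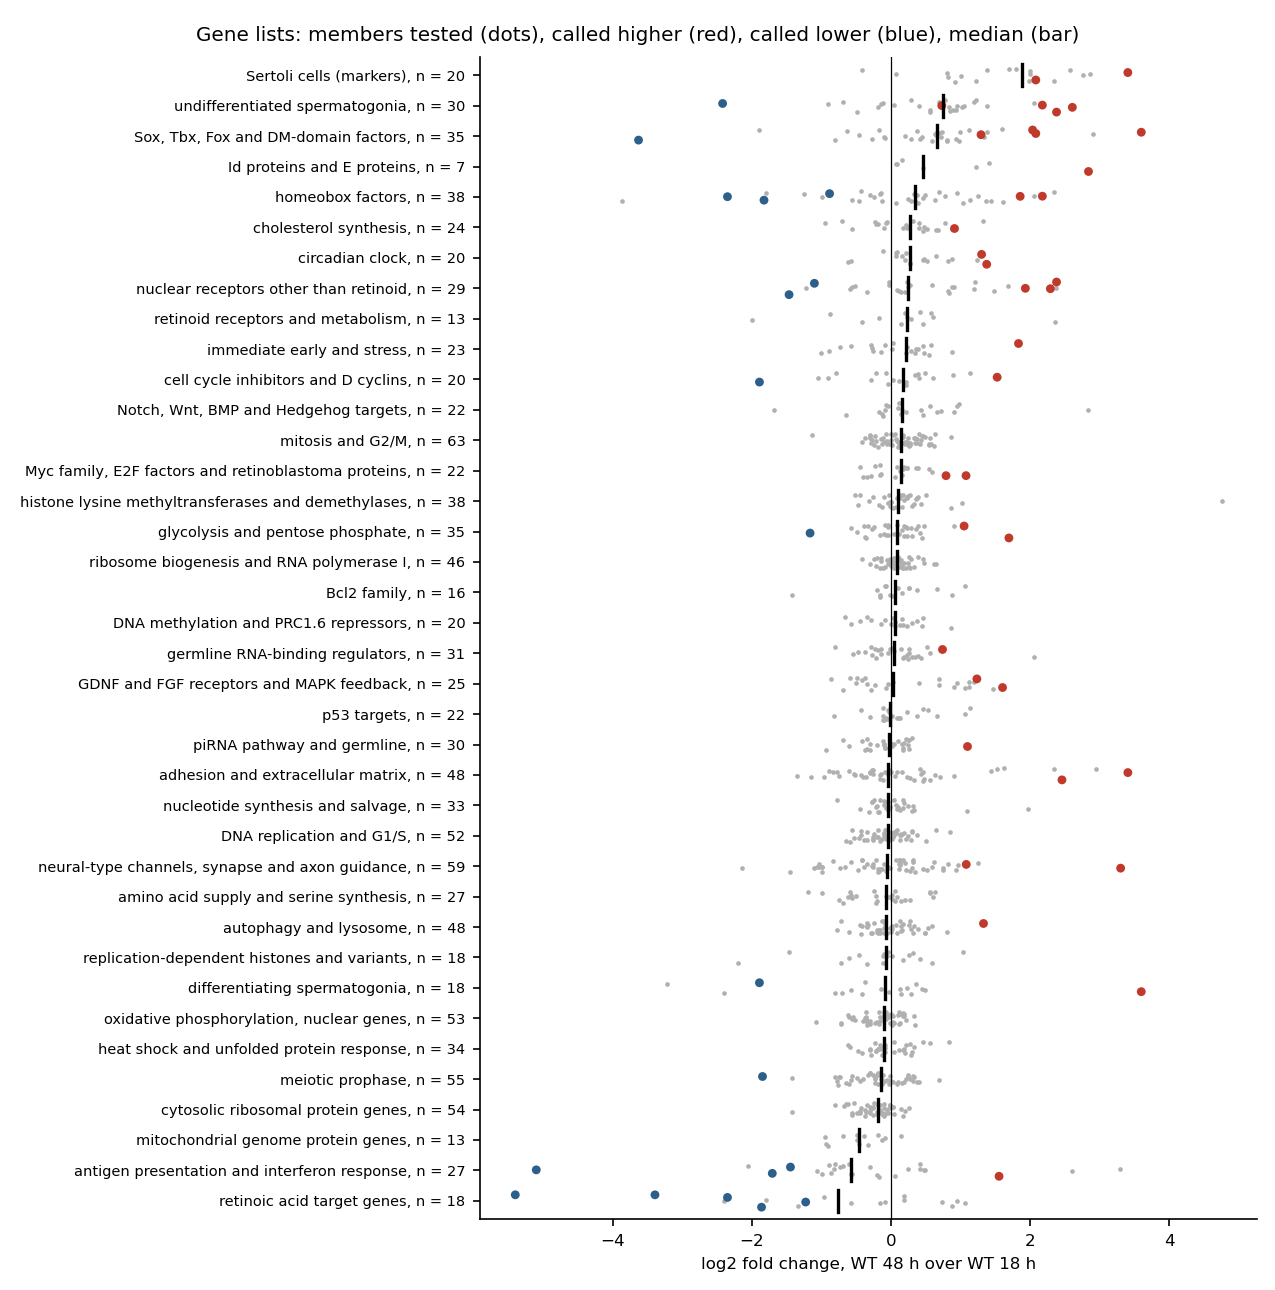
Log2 fold change, WT 48 h over WT 18 h, of the tested members of 37 gene lists and of the Sertoli markers; each dot is a gene, red is called higher, blue called lower, and the black bar is the median of the list. The Sertoli markers have the highest median (1.89) and the retinoic acid targets the lowest (-0.77).

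Of 35 tested genes of glycolysis and the pentose phosphate pathway 2 were higher and 1 lower. Hk2, a hexokinase gene, had 159.96 and 169 CPM at 48 h, against 82.5 and 76.0 at 18 h (1.05 ± 0.24), and Pfkfb3, which makes the activator of phosphofructokinase, 51.1 and 27.8 at 48 h, against 14.1 and 10.2 at 18 h (1.70 ± 0.26). Tkt, the transketolase gene, was lower, with 35.6 and 26.9 CPM at 48 h, against 69.6 and 70.5 at 18 h (-1.16 ± 0.26). Mvd was the 1 called of 24 cholesterol synthesis genes, with 112 and 98.5 CPM at 48 h, against 56.9 and 55.5 at 18 h (0.90 ± 0.15), after 186 and 170.1 at 12 h. Rragd, a Rag GTPase of nutrient sensing, was the 1 called of 48 autophagy and lysosome genes, with 46.8 and 40.1 CPM at 48 h, against 17.7 and 17.1 at 18 h (1.32 ± 0.19, called in all 4 fits that left out a library). Of 53 nuclear genes of oxidative phosphorylation, 13 protein genes of the mitochondrial genome, 54 ribosomal protein genes and 46 genes of ribosome biogenesis, 0 were called. In that order, their median log2 fold changes were -0.09, -0.46, -0.19 and 0.09, beside -0.0068 over all genes tested. A fold change above 0 was seen in 16, 1, 8 and 32 of them.

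Of 27 tested genes of antigen presentation and the interferon response 3 were lower and 1 higher, beside 0.588% and 1.10% of all genes tested. The median was -0.58. The class I genes H2-D1 (13.9 and 14.5 at 48 h, against 34.9 and 42.4 at 18 h; -1.44 ± 0.36) and H2-Q4 (5.84 and 2.90 at 48 h, against 13.2 and 15.8 at 18 h; -1.71 ± 0.37) belong to a family of near-identical genes, so reads may be split between copies and the values are uncertain. The remaining lower gene was Psmb8. Gbp3, an interferon-inducible GTPase gene, had 9.50 and 7.92 CPM at 48 h, against 4.02 and 1.80 at 18 h (1.56 ± 0.37).

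Of 20 clock genes 2 were higher and 0 lower, beside 1.10% and 0.588% of all genes tested. Both called genes encode PAR-domain factors of clock output. Dbp had 12.0 and 15.3 CPM at 48 h, against 4.51 and 5.98 at 18 h (1.38 ± 0.31; 18.0% of its exon length is shared with Sphk2), and Hlf 44.7 and 43.9 at 48 h, against 19.5 and 16.3 at 18 h (1.30 ± 0.25). Among 48 adhesion and matrix genes Jam2, a junctional adhesion molecule, was called with Gja1 (2.46 ± 0.62). Among 59 neural-type genes Nlgn2, a synaptic adhesion protein, had 162 and 151 CPM at 48 h, against 84.2 and 63.7 at 18 h (1.08 ± 0.16) and was called with Snap25 (3.304 ± 0.80), of the synaptic vesicle fusion complex. The lists of Notch, Wnt, BMP and Hedgehog targets, DNA methylation and PRC1.6 genes, histone methylation enzymes, p53 targets, the Bcl2 family, heat shock, amino acid supply and nucleotide synthesis held 0 called genes.

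The genes called higher are described over the other WT times by their median. Their median level was 19.8 CPM (0 h), 7.57 (12 h), 7.45 (18 h), 25.9 (48 h), 20.3 (72 h), 17.7 (96 h) and 15.1 (120 h). Of the 193, 154 (79.8%) were higher at 0 h, before the injection, than at 18 h, and 109 (56.5%) were higher at 12 h than at 18 h. The matching shares over all genes tested were not counted. The 103 genes called lower had medians of 20.1 CPM (0 h), 41.9 (12 h), 30.4 (18 h), 11.2 (48 h), 12.7 (72 h), 11.6 (96 h) and 12.6 (120 h), and 84 of them were higher at 0 h than at 48 h. The 18 and 48 h levels chose these genes and enter such counts, which are given as a description.

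**Figure D4:**
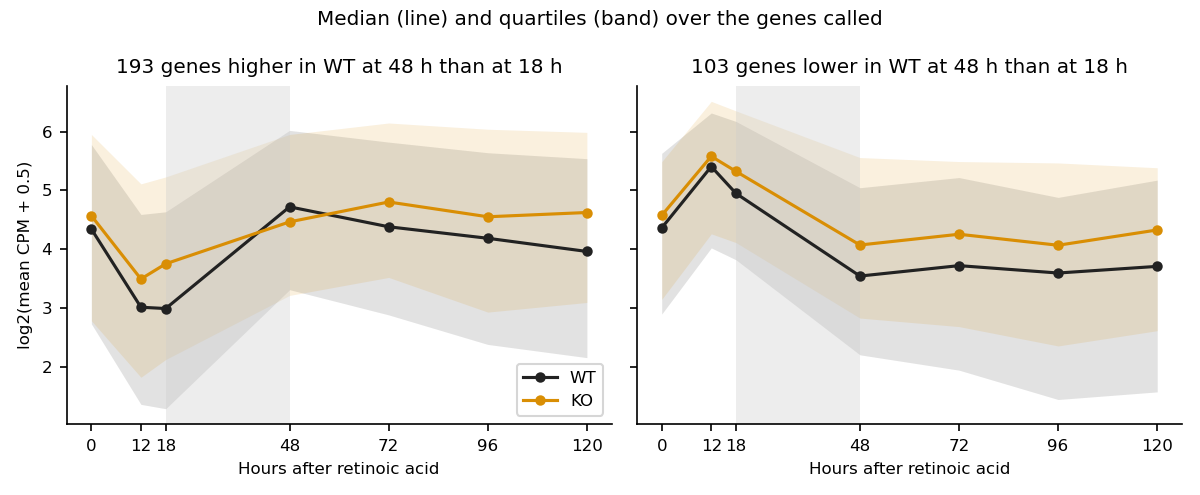
Median (line) and quartiles (band) of log2(mean CPM + 0.5) against hours after retinoic acid, over the 193 genes called higher (left) and the 103 called lower (right) in WT at 48 h; black is WT, orange KO, and shading marks 18 to 48 h. In WT the left set is low at 12 and 18 h (7.57 and 7.45 CPM) and the right set is high at 12 h (41.9 CPM).

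The WT libraries of 72 h and 12 h were not among those compared in the step, but they helped to set the expression filter and the spread behind its calls. At 72 h against 12 h, 701 genes were higher (4.0% of those tested) and 865 lower (4.94%). Of the 193 called higher, 120 were called higher there (62.2%), 1 (Mvd) was called lower, and 189 had a fold change above 0, beside 53.3% of all genes tested. Of the 103 called lower, 78 were called lower there (75.7%), 0 higher, and 99 had a fold change below 0, beside 46.6% of all genes. The shared genes are 17.1% of those higher and 9.02% of those lower at 72 h against 12 h.

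Called genes also differed in length. The median exon length was 5590 bases for genes called higher and 4330 for those called lower, beside 3850.5 over all genes tested that have an annotation; longer transcripts collect more reads, and the part of length in the calls was not tested. On the X chromosome were 5.82% of those called higher and 5.88% of those called lower, beside 4.599% of all.

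KO cells gave 103 genes higher (0.588%) and 173 lower (0.987%) at 48 h against 18 h. Of the 193 genes called higher in WT, 38 were called higher in KO (19.7% of the WT set and 36.9% of the KO set), 1 (Mycn) was called lower, and 169 had a fold change above 0, beside 52.4% of all genes. Of the 103 called lower in WT, 41 were called lower in KO (39.8% of the WT set and 23.7% of the KO set) and 0 higher. All 103 had a fold change below 0 in KO, beside 47.5% of all genes. The KO libraries also helped to set the expression filter and the spread behind the WT calls. Cyp26a1 had 0.445 and 0.923 CPM in KO at 48 h, against 11.5 and 25.8 in KO at 18 h (log2 fold change -4.87 ± 0.75), and Foxn4 9.06 and 5.85 CPM in KO at 48 h, against 35.7 and 49.95 in KO at 18 h (-2.48 ± 0.58), both called lower in KO. Sertoli markers in KO summed to 246 and 168 CPM at 48 h, against 103 and 83.1 at 18 h.

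The difference between the steps, WT minus KO, was tested itself and passed for 9 genes (0.0514% of those tested), all with the larger value in WT; 705 had an unadjusted p under 0.05. For 6 of them the WT step was called higher. Fbxo40, an F-box protein gene of muscle, had 21.5 and 11.9 CPM in WT at 48 h, against 2.94 and 3.95 in WT at 18 h, and 27.9 and 29.6 in KO at 48 h, against 61.8 and 48.4 in KO at 18 h (difference of log2 fold changes 3.23 ± 0.47). Mycn had 57.5 and 45.5 CPM in WT at 48 h, against 25.1 and 23.6 in WT at 18 h, and 60.3 and 76.6 in KO at 48 h, against 114 and 116 in KO at 18 h (1.83 ± 0.27), the KO step being called lower. Mobp had 12.8 and 8.44 CPM in WT at 48 h, against 1.47 and 1.44 in WT at 18 h, and 14.6 and 28.9 in KO at 48 h, against 36.2 and 25.1 in KO at 18 h (3.39 ± 0.60). The others of the 6 were Gpr56, an adhesion G-protein-coupled receptor (2.82 ± 0.49), Pla2g7, a secreted phospholipase (2.38 ± 0.45), and Smoc2, a matrix protein (2.06 ± 0.35).

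For Ddr1, Dmkn and Col6a2 the WT step did not pass and the KO step was called lower. Ddr1, a collagen receptor kinase gene, had 30.8 and 40.1 CPM in WT at 48 h, against 14.2 and 20.2 in WT at 18 h, and 40.2 and 50.8 in KO at 48 h, against 169.8 and 179 in KO at 18 h (2.98 ± 0.46). Dmkn, a secreted protein of skin, had 1.25 and 1.45 CPM in WT at 48 h, against 0.393 and 0.359 in WT at 18 h, and 1.34 and 1.85 in KO at 48 h, against 12.7 and 9.86 in KO at 18 h (4.64 ± 0.76), and Col6a2, a collagen VI chain, 29.0 and 28.2 CPM in WT at 48 h, against 19.9 and 16.6 in WT at 18 h, and 14.8 and 9.54 in KO at 48 h, against 54.3 and 40.1 in KO at 18 h (2.57 ± 0.47). In all 9 genes both KO libraries of 18 h lay above both WT libraries of 18 h. These 18 h levels enter the difference that chose the genes, so their order is given as a description. The count of 9 became 0 when the WT 18 h replicate 1 or the KO 48 h replicate 1 was left out, and 3 to 9 when any of the other 6 libraries was.

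**Figure D5:**
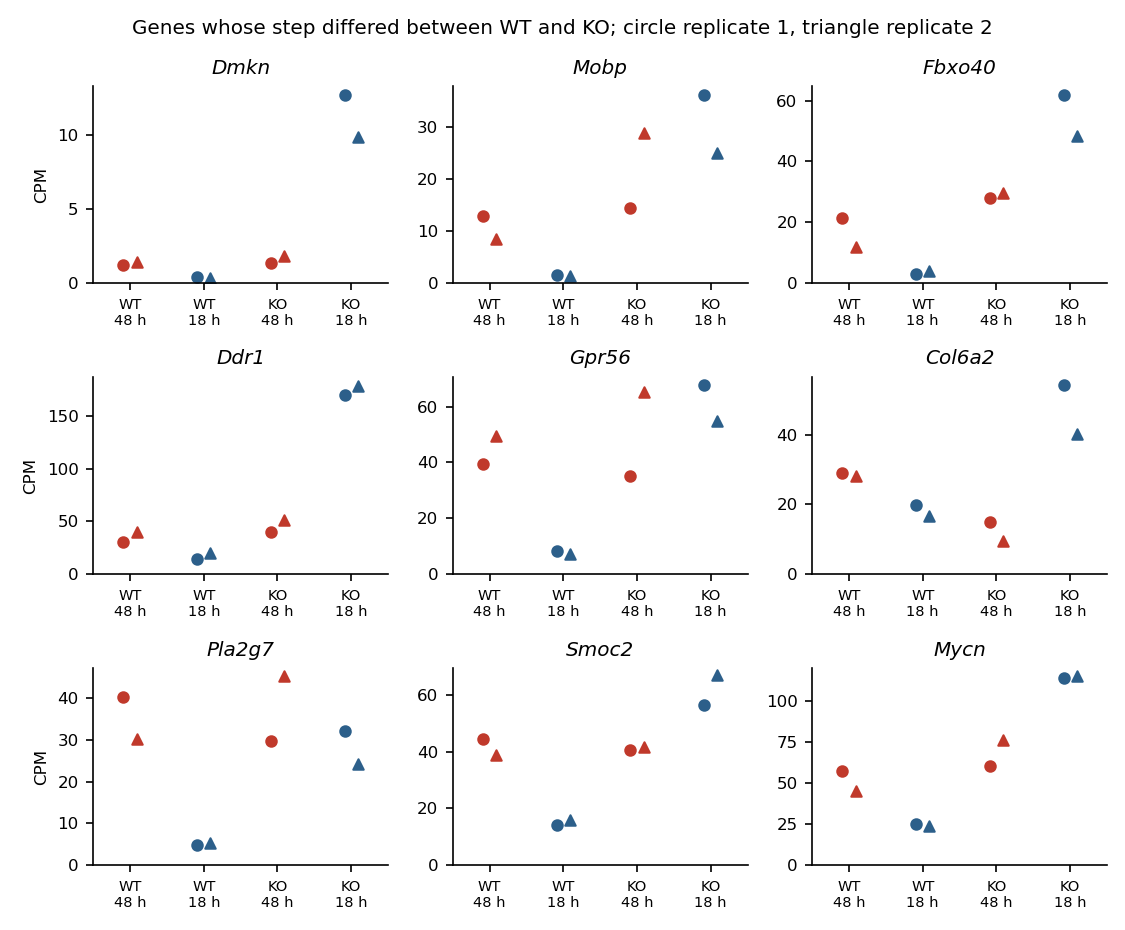
CPM in each library of the 9 genes whose step from 18 to 48 h differed between WT and KO, in WT 48 h, WT 18 h, KO 48 h and KO 18 h; red is 48 h, blue 18 h, circles replicate 1 and triangles replicate 2. In each panel both blue WT points lie under both blue KO points, as in Mycn (57.5 and 45.5 CPM in WT at 48 h, against 25.1 and 23.6 in WT at 18 h, and 60.3 and 76.6 in KO at 48 h, against 114 and 116 in KO at 18 h). The 18 h levels enter the difference that chose these genes.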

How the data were processed

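The series holds 28 poly(A) RNA-seq libraries (Ion Proton), 2 per genotype and time, of which the 4 WT libraries of 48 and 18 h are compared here. The authors deposited tables of read counts per gene, not normalized; the submitters' processing notes name mm10 as build, and as tools Bowtie, TopHat and Cufflinks, without versions or roles. Which program counted reads, and whether by strand, is not given in the sources used here.

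Further deposited tables by the authors hold normalized values under names that say FPKM; in the WT 48 and 18 h columns they equal the counts divided by the library total, that is CPM, within 0.001 for 43280 features, and 24 such columns were not used. The replicate numbers of KO libraries differ between the deposited count and CPM tables, so KO numbers follow the count tables.

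Of 43280 features, 27 with names turned into dates were left out, together with rows that name no gene (in the first count table, no-feature reads made up 27.1% (48 h) and 29.2% (18 h) of all rows summed in WT; the second table listed none). The counts of all 28 libraries entered 1 fit in edgeR 4.0.16 (R 4.3.3): filterByExpr on the 14 groups kept 17519 genes, TMM scaling, robust quasi-likelihood fit to 14 group means with no covariate, Benjamini-Hochberg adjustment. SE is the log2 fold change divided by the square root of F. Depth was 913055 to 10135820 reads per library, and a floor is 3 counts. DESeq2 1.42.0, other scalings and filters, a replicate block and fits leaving out libraries were alternatives; the script was tested on simulated counts.

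Samples were grouped by their labels. The named genes are Stra8, Kit, Cyp26a1, Rarb and Dhrs3, the 15 leading ones each way with at least 5 CPM, up to 4 called members per list, and the leading differences between genotypes; other list members named give context and were chosen after their values were seen, and some genes that the rule names are not reported here. The 15 leading ones each way also needed both 48 h libraries beyond both 18 h libraries, which held for all called genes. The comparison, lists and markers were chosen with earlier results of these data known, and 6 list symbols matched no feature. Exon overlaps are from GENCODE on GRCm38, to which 39354 features matched by name.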

Additional observations from a re-analysis of the deposited data

Results flagged for a closer look

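The step from 18 to 48 h differed between WT and KO in 9 genes by edgeR's test of the difference itself, WT minus KO on the log2 scale. It was 4.64 ± 0.76 (SE) for Dmkn (adjusted p = 0.0121), 3.39 ± 0.60 for Mobp (0.026), 3.23 ± 0.47 for Fbxo40 (0.00543), 2.98 ± 0.46 for Ddr1 (0.0103) and 2.82 ± 0.49 for Gpr56 (0.0239). It was 2.57 ± 0.47 for Col6a2 (0.0299), 2.38 ± 0.45 for Pla2g7 (0.0454), 2.06 ± 0.35 for Smoc2 (0.0165) and 1.83 ± 0.27 for Mycn (0.00543). Each of the 9 was called in 1 to 6 of the 8 fits that left out 1 library.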

How the results depend on the processing

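The count of 296 genes for WT 48 h against 18 h was 446 with DESeq2, 480 without a filter on low counts, 100 in a fit of the 4 libraries alone and 35 to 122 when 1 library was left out. The KO count of 276 was 420, 470 and 1307 under the first 3 of these and 39 to 127 with 1 library left out; the 39 came without the KO 48 h replicate 1. The 9 genes of the difference became 23 with DESeq2, 48 without a filter and 0 to 9 with 1 library left out. The 1566 genes of WT 72 h against 12 h became 438 in a fit of those 4 libraries alone and 662 to 1041 with 1 left out. The cause of these changes, the smaller number of libraries included, was not tested. A stricter filter, other scalings and leaving out 3 shallow KO libraries kept each of these counts within 1.5 times.

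With a replicate block the counts were 640 (28 libraries) or 532 (1 genotype) for WT, 616 or 615 for KO, 19 for the difference and 2433 for WT 72 h against 12 h; for Stra8, WT 48 h vs 18 h, the adjusted p was 0.0694 (28 libraries) or 2.28e-05 (1 genotype) with the block and 0.154 without it. The labels do not say that a number pairs samples; deviations of same-numbered libraries correlated at 0.618 between the WT groups of 18 and 48 h, with 2 numbers only.

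None of the 67 called genes named reversed under any alternative, and 28 to 52 of them lost their call when 1 of the 4 WT libraries was left out. With 2 libraries a group, the leading calls rest on few reads where levels are under 1 CPM.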
